A study of Mus musculus with 7 samples.

Results

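The Dlk1-Meg3 domain of mouse chromosome 12 is an imprinted locus that carries one of the large clusters of mammalian microRNAs. The transcripts compared here are those of the locus, Dlk1, Rtl1, Meg3, Rian and Mirg, together with Grb10, an imprinted gene of chromosome 11 that lies outside it. They were found in the deposited array table as every probe set (a group of probes that reads one stretch of a transcript) whose platform annotation gives exactly 1 gene symbol, that symbol being one of the 6. This gave 37 of the 53644 probe sets with 1 symbol, for 5 of 5017 genes: 6 for Dlk1, 4 for Rtl1, 5 for Meg3, 1 for Rian and 21 for Grb10. Mirg had no such probe set and was not analysed here.

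In this domain the protein-coding genes Dlk1 and Rtl1 are transcribed from the paternal chromosome, and the long noncoding RNAs Meg3, Rian and Mirg from the maternal one. A methylated region between Dlk1 and Meg3 sets this choice. The maternal RNAs host microRNAs and small nucleolar RNAs, and the microRNA hairpins cut from them are substrates of Dicer, the enzyme that makes mature microRNAs. Several of these microRNAs are encoded opposite Rtl1, and in the mouse they are known to pair with the Rtl1 mRNA and cleave it.

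The study compared dissected retinal pigment epithelium (RPE), the pigmented layer behind the photoreceptors, from pups at postnatal day 5. The 3 Dicer1-deficient samples were Dicer1loxP/loxP;Dct-Cre, in which Cre is driven by the promoter of dopachrome tautomerase, a gene of pigment cells including RPE and melanocytes. The 4 control samples are labelled only as control RPE, and their genotype is not given. All pups came from Dicer1 flox/+ Dct cre mice mated with flox/flox mice, so the controls also inherit at least 1 floxed allele. Nothing states whether arrays came from separate pups or pools, so each p-value reflects only how far these samples scatter, which may be technical.

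The values were log2 signals, 1 array per sample, with quartiles of 4.63, 6.22 and 8.13 over the 65535 probe sets of the table. With a header line this number fills the row limit of older spreadsheet programs, and of the 5017 genes named 4918 lie on chromosomes 1 and 10 to 13. So counts and shares over all probe sets or all genes describe this part of the genome only, and genes of other chromosomes were, apart from a few, not analysed here. Control 4 stood apart: its median signal was 6.05, against 6.22 to 6.26 in the 3 Dicer1-deficient arrays and 6.25 to 6.26 in controls 1 to 3, and its correlation with each other array over all probe sets was 0.942 to 0.951. Results that rest on it are given with and without it. Dicer1 itself had 10.53, 10.71 and 10.47 in Dicer1-deficient arrays, against 10.27, 10.65, 10.69 and 10.88 in controls, at its brightest probe set (limma adjusted p = 0.961), a log2 difference of -0.05, or 0.03 without control 4. Averaged over its 28 probe sets the difference was -0.04 (limma adjusted p = 0.921), or -0.10 without control 4 (limma adjusted p = 0.249). The floxed part of the gene is not given, and a probe set outside it checks nothing. Of the RPE markers 4 of 15 were measured, Rdh5, Rdh10, Kcnj13 and Serpinf1, all with a mean signal above 10 over the arrays. RNA of connective tissue was present too, with mean signals up to 13.2 for Col3a1.

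The microRNAs of the locus are shown because their precursors are what the host transcripts carry and what Dicer1 acts on. Between Dlk1 and Dio3, the gene that closes the domain, RefSeq (GRCm38.p6) places 58 hairpins, 54 of them on the plus strand. Of these, 1 lies within the span of Meg3, 15 within that of Rtl1, 3 within that of Rian and 10 within that of Mirg, and 29 lie between these genes. Mature records in the same interval hold 113 named microRNAs with 104 different seeds, the bases 2 to 8 that pair with targets. Some of these belong to microRNA genes without a hairpin among those counted, so the hairpin counts are incomplete. Both miR-1906 and miR-770, for example, lie within the span of Meg3. The 12 below were taken along the cluster as examples, printed 5′ to 3′ with the seed in capitals. Of these miR-770 lies in Meg3, the 5 from miR-431 to miR-136 lie opposite Rtl1, miR-370 lies in Rian, miR-379 and miR-411 lie between Rian and Mirg, and miR-154 and miR-410 lie in Mirg.
mmu-miR-770-5p (chr12:109563710-109563731, plus strand): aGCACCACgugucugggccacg
mmu-miR-431-5p (chr12:109590459-109590479, plus strand): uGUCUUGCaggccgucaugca
mmu-miR-433-3p (chr12:109591781-109591802, plus strand): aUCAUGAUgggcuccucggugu
mmu-miR-127-3p (chr12:109592888-109592909, plus strand): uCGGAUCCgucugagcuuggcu
mmu-miR-434-3p (chr12:109594565-109594586, plus strand): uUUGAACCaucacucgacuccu
mmu-miR-136-5p (chr12:109595331-109595352, plus strand): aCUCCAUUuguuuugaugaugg
mmu-miR-370-3p (chr12:109618305-109618326, plus strand): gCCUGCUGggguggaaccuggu
mmu-miR-379-5p (chr12:109709065-109709085, plus strand): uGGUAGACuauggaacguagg
mmu-miR-379-3p (chr12:109709102-109709123, plus strand): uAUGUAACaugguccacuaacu
mmu-miR-411-3p (chr12:109710225-109710246, plus strand): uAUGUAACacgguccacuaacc
mmu-miR-154-5p (chr12:109738438-109738459, plus strand): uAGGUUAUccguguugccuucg
mmu-miR-410-3p (chr12:109743764-109743784, plus strand): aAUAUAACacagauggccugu
Only 9 seeds were shared by more than 1 name. The arms miR-379-3p and miR-411-3p share the seed AUGUAAC, and miR-379-5p shares its seed with miR-1193-5p. The mature microRNAs themselves were not analysed here, so what follows concerns their host transcripts and the linked protein-coding genes.

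No probe set of the locus or of Grb10 passed the test between Dicer1-deficient and control RPE, but most were slightly lower in Dicer1-deficient RPE. By limma, with p-values adjusted over the whole table, 0 of 37 reached an adjusted p of 0.05, against 0.856% of all probe sets. The smallest adjusted p was 0.166. At an unadjusted p under 0.05 there were 5, 4 of Dlk1 and 1 of Grb10, where 11.3% of all probe sets reached it. The log2 difference (Dicer1-deficient minus control) was negative in 30 of 37, with a median of -0.16, against 49.4% negative and a median of 0.0038 over all probe sets. Grb10, outside the locus, gave 18 of these 30, and within the locus 12 of 16 were negative. Probe sets of one transcript read the same RNA samples, so they are not independent and these counts are a description only. In 8 of 37 the 2 groups did not overlap, all of them lower in Dicer1-deficient arrays, 4 of Dlk1 and 4 of Grb10. Of all probe sets 13.3% did not overlap, and 6.10% were lower in this way. Without control 4, 32 were negative and 8 had an unadjusted p under 0.05. In that fit 15 were lower without overlap (12.1% of all probe sets) and 1 was higher without overlap (11.9%), still with 0 called where 1.86% of all probe sets were.

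**Figure D1:**
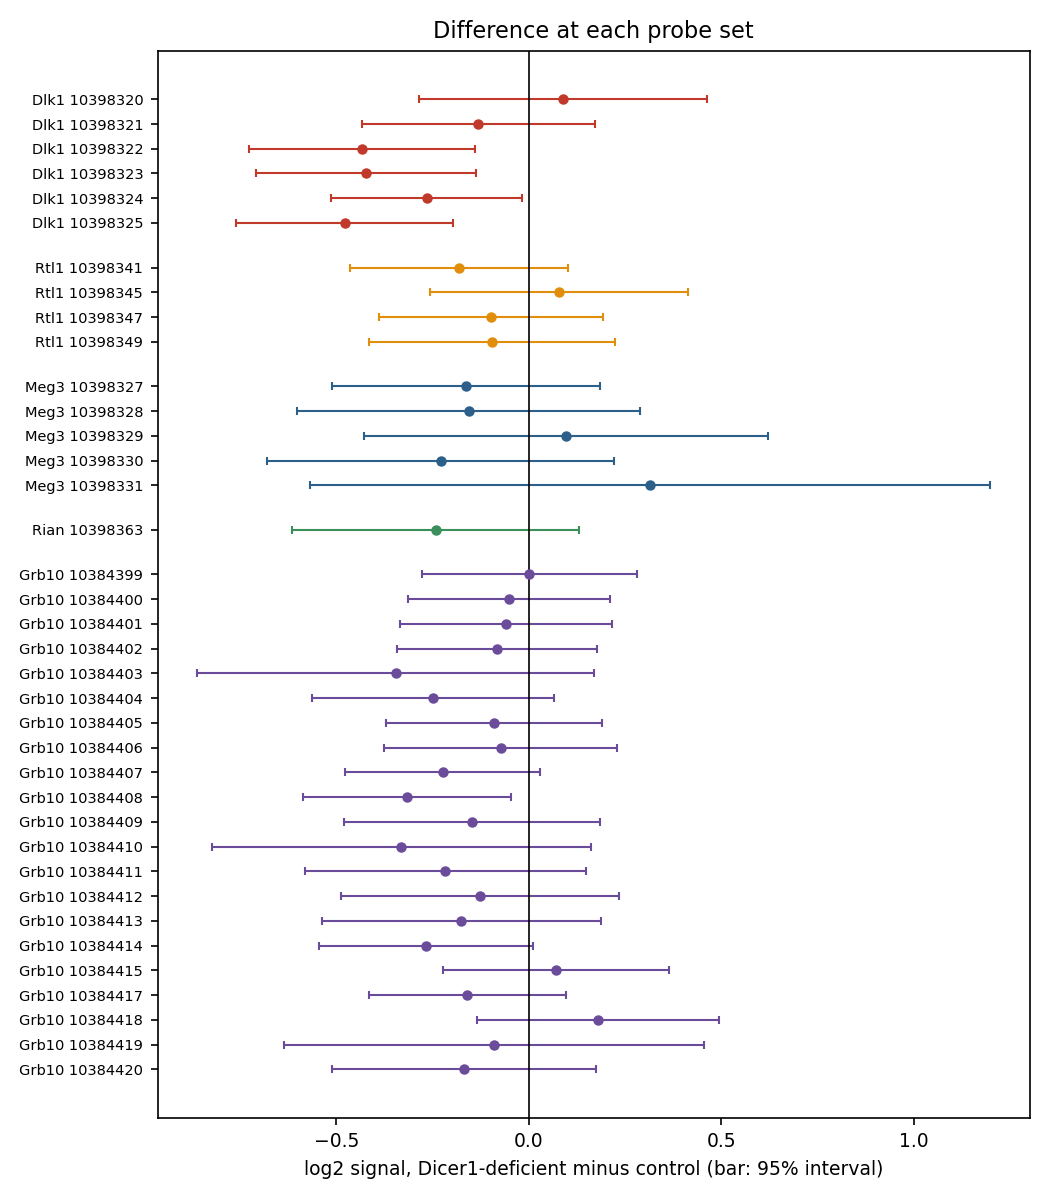
Difference in log2 signal between Dicer1-deficient (n = 3) and control (n = 4) arrays at each of the 37 probe sets, with limma's 95% interval as a bar and the zero line drawn; colours mark genes. Of the 37 points 30 lie left of zero, and the interval lies wholly left of zero in 4 probe sets of Dlk1 and 1 of Grb10.

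Dlk1 encodes a transmembrane protein with epidermal growth factor repeats that resembles Notch ligands and restrains the differentiation of fat cells. Its signal was high, and of the measured genes of the locus it had the smallest p. At its brightest probe set, 10398324, the Dicer1-deficient arrays read 10.68, 10.67 and 10.61 on the log2 scale, against 10.86, 10.89, 11.00 and 10.92 in the controls. All 3 Dicer1-deficient arrays lay below all 4 controls, control 4 included. The means were 10.65 ± 0.04 (SD, n = 3) in Dicer1-deficient and 10.92 ± 0.06 (SD, n = 4) in control arrays, a log2 difference of -0.27 (SE 0.09, 95% interval -0.47 to -0.06). With p adjusted over all genes it did not pass (limma adjusted p = 0.210), and 16.3% of all genes had no overlap at their brightest probe set.

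The larger differences along Dlk1 were at 3 other bright probe sets. Probe set 10398325 had 10.28, 10.14 and 9.97 in Dicer1-deficient arrays, against 10.54, 10.62, 10.61 and 10.67 in controls, a log2 difference of -0.48 (limma adjusted p = 0.166). Probe set 10398322 had 9.95, 10.04 and 9.80 in Dicer1-deficient arrays, against 10.32, 10.24, 10.37 and 10.53 in controls, a difference of -0.43 (limma adjusted p = 0.231). Probe set 10398323 had 10.25, 10.24 and 9.96 in Dicer1-deficient arrays, against 10.55, 10.51, 10.65 and 10.57 in controls, a difference of -0.42 (limma adjusted p = 0.231). In each of these the groups did not overlap, and the third Dicer1-deficient array was the lowest of the 7.

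The remaining 2 Dlk1 probe sets overlapped between the groups. Probe set 10398321 had 8.28, 8.31 and 8.19 in Dicer1-deficient arrays, against 8.34, 8.26, 8.33 and 8.63 in controls, a difference of -0.13, or -0.05 without control 4. Probe set 10398320 was dim, below the median of all signals, with 6.11, 5.91 and 5.92 in Dicer1-deficient arrays, against 6.08, 5.93, 5.53 and 6.02 in controls, a difference of 0.09, or 0.13 without control 4. Control 4 was the highest control at 3 of the 6 Dlk1 probe sets and inside the range of the other controls at the other 3.

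**Figure D2:**
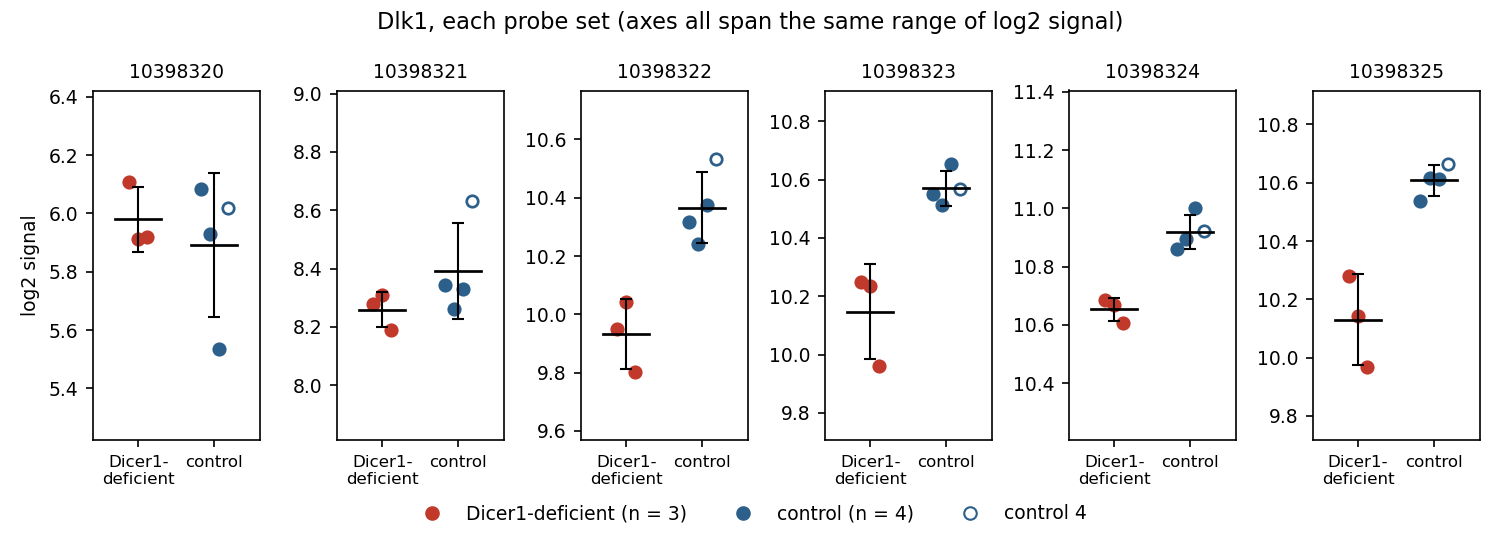
Log2 signal of the 6 Dlk1 probe sets in each array, Dicer1-deficient left and control right, with group means as lines and SDs as bars; each panel spans the same range but starts at its own level. The 3 Dicer1-deficient points lie below all controls at probe sets 10398322, 10398323, 10398324 and 10398325 and overlap them at the other 2.

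Averaged over its 6 probe sets, Dlk1 had 9.26, 9.22 and 9.07 in Dicer1-deficient arrays, against 9.45, 9.41, 9.42 and 9.56 in controls. The groups did not overlap (as for 18.9% of all genes), and the log2 difference of -0.27 (SE 0.08) had a limma adjusted p of 0.100. Without control 4 the same mean differed by -0.24 and passed, with a limma adjusted p of 0.0353; 17.0% of all genes passed in that fit, against 5.86% with all arrays. This was the single gene among the 5 to pass in any of the alternatives tried.

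As list means, markers of RPE, fibroblasts and sclera, and melanocytes and Schwann cells also had lower signals in Dicer1-deficient arrays. Few of these markers passed at their brightest probe set, where 2.33% of all genes did. The 4 measured RPE markers had a mean signal of 10.86 to 11.02 in Dicer1-deficient arrays, against 11.38 to 11.57 in controls, and 1 of them, the potassium channel gene Kcnj13, fell (9.99 ± 0.21, n = 3, against 11.18 ± 0.16, n = 4; limma adjusted p = 0.0051). Of the fibroblast and sclera markers 10 of 12 were measured, at 10.91 to 11.14 in Dicer1-deficient arrays, against 11.28 to 11.40 in controls, and 0 passed, with 5 at an unadjusted p under 0.05 (14.5% of all genes). Of the 10, 9 had negative log2 differences, but Col1a1 (-0.01) and Col3a1 (0.01) were nearly level at the brightest probe set. Averaged over probe sets, Col1a1 and Col3a1 differed by -0.36 and -0.27, both uncalled. Of the melanocyte and Schwann markers 3 of 7 were measured, at 8.33 to 8.47 in Dicer1-deficient arrays, against 8.83 to 9.26 in controls, with 0 called and 2 at an unadjusted p under 0.05. In these 3 lists no marker lay below the median of all signals. With probe sets averaged, where 5.86% of all genes passed, 3 of the RPE markers, 3 of the fibroblast and sclera markers and 2 of the melanocyte and Schwann markers fell. Without control 4 these counts of that mean were 3, 6 and 3, where 17.0% of all genes passed.

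The other marker lists overlapped between the groups in their mean signal. The 5 of 14 photoreceptor markers measured had mean signals of 6.09 to 6.76 in Dicer1-deficient arrays, against 5.41 to 6.35 in controls, with a median log2 difference of 0.41. The 6 of 9 lens markers measured had 7.16 to 8.99 in Dicer1-deficient arrays, against 6.08 to 8.03 in controls, with a median difference of 1.34. In both lists 0 passed at the brightest probe set or on the mean of probe sets, and 2 had an unadjusted p under 0.05 at the brightest. Of the retinal neuron markers 5 of 15 were measured, at 6.43 to 7.26 in Dicer1-deficient arrays, against 6.25 to 6.88 in controls. One of them, the transcription factor gene Tfap2a, fell (7.65 ± 0.37, n = 3, against 8.64 ± 0.21, n = 4; limma adjusted p = 0.0470), and its relative Tfap2b had a difference of 0.86 (limma adjusted p = 0.0938), called with probe sets averaged (0.81, limma adjusted p = 0.0437). The 5 melanin and melanosome markers measured had 9.42 to 9.93 in Dicer1-deficient arrays, against 9.89 to 10.31 in controls, with 0 called and 3 at an unadjusted p under 0.05. All 5 had negative log2 differences, with a median of -0.60, and Pmel, the brightest of them, had -0.05. Of the extraocular muscle markers 10 of 14 were measured, and their means overlapped, 8.24 to 8.95 in Dicer1-deficient arrays against 8.35 to 8.75 in controls. The means of the 2 measured markers of endothelium and pericytes and of the 3 of macrophages overlapped too, with 0 called at the brightest probe set. Of these Cd68 was lower without overlap (-0.46, limma adjusted p = 0.170), as 16.3% of all genes had no overlap. With probe sets averaged and control 4 left out, 17.0% of all genes passed. In that fit 2 of the 5 retinal neuron, 2 of the 5 melanin and melanosome and 1 of the 3 macrophage markers passed. The photoreceptor, lens, muscle and endothelium lists had 0 there. The part of these cell types in the Dlk1 values was not tested, and in bulk tissue fewer cells of a type and less RNA per cell cannot be told apart.

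Rtl1, a gene derived from a retrotransposon and needed in placenta and muscle, was dim and nearly level at its 4 probe sets. At its brightest probe set, 10398345, the Dicer1-deficient arrays read 4.94, 5.22 and 5.16, against 4.85, 4.91, 5.12 and 5.23 in controls, a log2 difference of 0.08 (95% interval -0.23 to 0.38; limma adjusted p = 0.908), or 0.14 without control 4. The groups overlapped there and at the other 3 probe sets. Those were 10398341 at 4.43, 4.57 and 4.67 in Dicer1-deficient arrays, against 4.71, 4.64, 4.73 and 4.87 in controls. Probe sets 10398347 and 10398349 had differences of -0.10 and -0.10, with group means of 4.02 and 4.18 in Dicer1-deficient and 4.11 and 4.28 in control arrays, and without control 4 the differences were -0.03 and -0.01. All 4 lay below the median of all signals and 2 below the lower quartile, so a change of Rtl1 mRNA may not be detectable at this signal. Control 4 was the highest control at all 4. The numbers of these probe sets run between those of the Meg3 and Rian probe sets, and the strand they read was not checked. So whether they read Rtl1 mRNA or a transcript of the opposite strand cannot be told here.

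A further 2 probe sets carry the symbols of both Rtl1 and 6430411K18Rik, the transcript on the opposite strand, and so fall outside the rule. They are given because miR-431, miR-433, miR-127, miR-434 and miR-136 above lie on that strand. Probe set 10398343 had 5.72, 5.89 and 5.85 in Dicer1-deficient arrays, against 5.65, 5.87, 5.78 and 5.97 in controls, and these overlapped. Probe set 10402607 had 5.17, 4.72 and 4.86 in Dicer1-deficient arrays, against 5.24, 5.25, 5.36 and 5.28 in controls. Every Dicer1-deficient array lay below the controls there, and 6.10% of all probe sets were lower in this way. No test result is given for either probe set. Probe set 10398343 is numbered among the Rtl1 probe sets above, and 10402607 is not. Which of the transcripts the 2 read cannot be told from the annotation.

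Meg3, the noncoding RNA that opens the maternal part of the locus, did not separate the groups at any of its 5 probe sets. Its brightest, 10398328, had 10.90, 10.92 and 10.61 in Dicer1-deficient arrays, against 10.57, 10.90, 11.10 and 11.30 in controls. The controls spread over a wider range than the Dicer1-deficient arrays and enclosed them. The log2 difference was -0.16 (SE 0.18, 95% interval -0.58 to 0.27; limma adjusted p = 0.831), and -0.04 without control 4. Probe set 10398327 had 10.19, 10.41 and 10.44 in Dicer1-deficient arrays, against 10.26, 10.47, 10.74 and 10.57 in controls. Probe set 10398330 had 10.05, 9.56 and 9.89 in Dicer1-deficient arrays, against 9.67, 10.05, 10.29 and 10.25 in controls.

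At the other 2 Meg3 probe sets control 4 was the lowest of the 7 arrays. Probe set 10398329 had 9.36, 9.28 and 9.18 in Dicer1-deficient arrays, against 9.20, 9.21, 9.66 and 8.63 in controls. Probe set 10398331 was dim, with 4.76, 5.85 and 5.18 in Dicer1-deficient arrays, against 5.02, 5.04, 5.63 and 4.11 in controls. Their differences were 0.10 and 0.32, and without control 4 they were -0.08 and 0.03. The mean over the 5 probe sets differed by -0.03 (95% interval -0.32 to 0.27; limma adjusted p = 0.981), or by -0.08 without control 4.

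Rian, the next noncoding RNA along the locus and host of miR-370 and of a small nucleolar RNA cluster, had a single probe set, 10398363. It read 8.60, 8.72 and 8.48 in Dicer1-deficient arrays, against 8.68, 8.77, 8.72 and 9.20 in controls. The groups overlapped, and control 4 was the highest array. The log2 difference was -0.24 (95% interval -0.59 to 0.10; limma adjusted p = 0.546), and -0.12 without control 4.

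**Figure D3:**
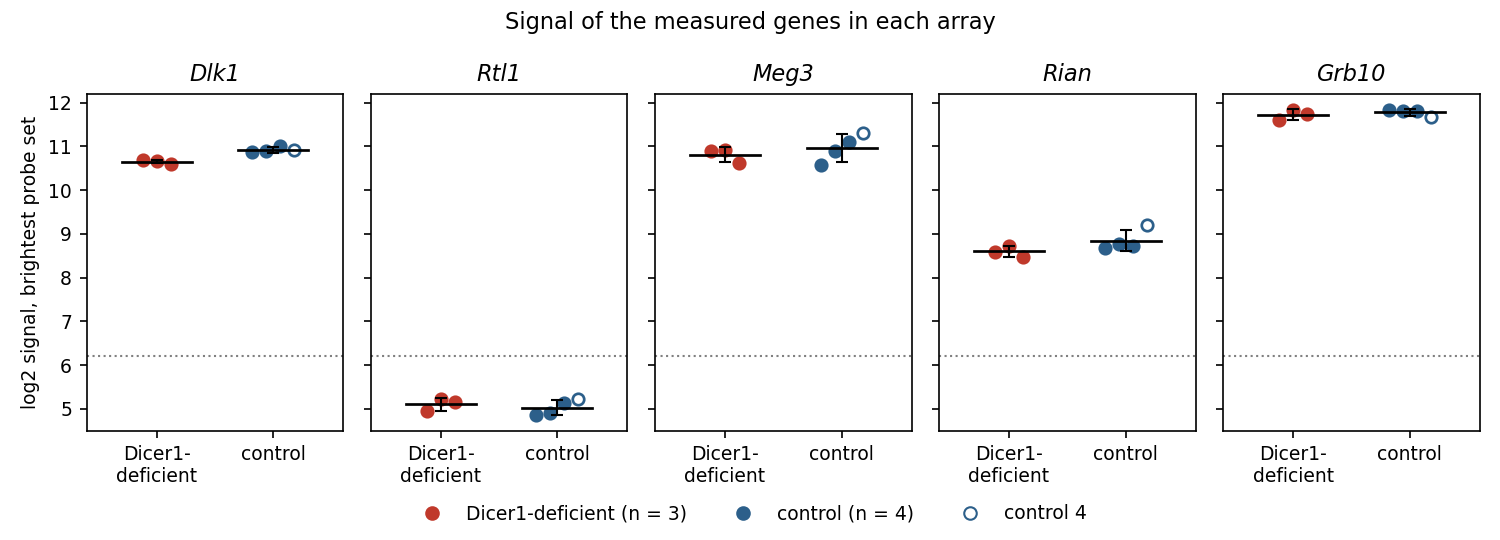
Log2 signal of the brightest probe set of each of the 5 measured genes, Dicer1-deficient left and control right, with group means as lines and SDs as bars; the dotted line is the median of all signals, 6.22, and control 4 is drawn open. Dlk1 alone has no overlap between the groups, and Rtl1 alone lies below the dotted line; signals of different genes come from different probes and are not comparable.

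Grb10 encodes an adaptor protein that binds the insulin and insulin-like growth factor receptors and restrains growth; in the mouse it is maternally expressed in most tissues and paternally in neurons. Its 21 probe sets gave the closest view along a transcript. At the brightest, 10384401, the Dicer1-deficient arrays read 11.60, 11.84 and 11.73, against 11.83, 11.82, 11.81 and 11.67 in controls, a log2 difference of -0.06 (95% interval -0.29 to 0.18; limma adjusted p = 0.908). The groups overlapped, with control 4 below the other controls, and without it the difference was -0.10.

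Elsewhere along Grb10 the differences ran from -0.35 to 0.18, with a median of -0.15, and 18 of 21 were negative. The groups did not overlap at 4 probe sets, all lower in Dicer1-deficient arrays, where 6.10% of all probe sets were lower in this way. Probe set 10384408 had 9.62, 9.43 and 9.44 in Dicer1-deficient arrays, against 9.85, 9.90, 9.76 and 9.74 in controls, a difference of -0.32 (limma adjusted p = 0.355). Probe set 10384414 had 9.32, 9.38 and 9.41 in Dicer1-deficient arrays, against 9.79, 9.48, 9.62 and 9.66 in controls, a difference of -0.27. In both, all Dicer1-deficient arrays lay below all controls. Probe set 10384407 had 10.23, 10.36 and 10.22 in Dicer1-deficient arrays, against 10.54, 10.52, 10.43 and 10.49 in controls, a difference of -0.22. Probe set 10384417 had 10.92, 10.97 and 10.95 in Dicer1-deficient arrays, against 11.03, 11.19, 11.04 and 11.18 in controls, a difference of -0.16.

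The widest differences, at 10384403 and 10384410, overlapped through control 4. Probe set 10384403 had 8.73, 9.11 and 9.17 in Dicer1-deficient arrays, against 9.73, 9.45, 9.36 and 8.85 in controls, a difference of -0.35. Probe set 10384410 had 10.18, 9.99 and 9.84 in Dicer1-deficient arrays, against 10.70, 10.50, 10.30 and 9.84 in controls, a difference of -0.33. Control 4 lay below the other controls at 13 of the 21 probe sets. Without it 19 of 21 were negative, 11 did not overlap in the lower direction and 1 in the higher (12.1% and 11.9% of all probe sets), and the median was -0.23, with 0 called and a smallest limma adjusted p of 0.159.

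The 3 probe sets with positive differences were 10384399, 10384415 and 10384418. Probe set 10384418 had 7.87, 7.90 and 7.90 in Dicer1-deficient arrays, against 7.68, 7.78, 7.47 and 7.92 in controls, a difference of 0.18. Only control 4 reached the Dicer1-deficient arrays there. Probe set 10384415 had 7.59, 7.71 and 7.78 in Dicer1-deficient arrays, against 7.62, 7.82, 7.57 and 7.50 in controls, with a difference of 0.07, or 0.03 without control 4, and at 10384399 the groups had the same mean signal, 10.59. Over all 21 probe sets Grb10 averaged 9.64, 9.76 and 9.64 in Dicer1-deficient arrays, against 9.94, 9.86, 9.81 and 9.67 in controls. Controls 1 to 3 lay above the Dicer1-deficient arrays and control 4 among them, and the difference was -0.14 (SE 0.09; limma adjusted p = 0.522), or -0.19 without control 4 (limma adjusted p = 0.0788).

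Whether the probe sets of one transcript differ among themselves was asked with limma's diffSplice, an F test per gene of unequal differences. None of the 4 members with several probe sets passed. The F test gave adjusted p = 0.430 for Dlk1 (unadjusted p = 0.0159) and 1 for each of Rtl1, Meg3 and Grb10, where 1.34% of the 4470 genes tested passed. Dlk1 probe set 10398320, the dim one, departed furthest from the rest of its gene, by 0.44 on the log2 scale (diffSplice adjusted p = 0.300). Without control 4 Dlk1 still did not pass (diffSplice adjusted p = 0.0587), nor did its probe set 10398320 (diffSplice adjusted p = 0.0668). In that fit Grb10 passed (diffSplice adjusted p = 0.0167), as did 6.29% of genes. Its probe set 10384418 was 0.46 above the rest of the gene (diffSplice adjusted p = 0.0102, where 1.29% of probe sets passed). That test takes 1 spread for all probe sets of a gene. When each probe set kept its own spread, in a limma fit of each probe set minus the mean of the others added after the values were seen, Grb10 did not pass without control 4 (adjusted p = 0.508), nor did probe set 10384418 (adjusted p = 0.306), where 0.179% of genes and 0.0810% of probe sets passed. Neither Dlk1 (limma adjusted p = 0.511) nor its probe set 10398320 (limma adjusted p = 0.462) passed in that fit.

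A comparison of the paternal gene Dlk1 with the maternal RNA Meg3 within each array, chosen after the values were seen, showed no separation. The mean log2 signal of Dlk1 minus that of Meg3 was 0.21, 0.01 and 0.01 in Dicer1-deficient arrays, against 0.51, 0.28, -0.07 and 0.59 in controls. The groups overlapped through control 3. The group difference was -0.25 (two-sided exact permutation p = 0.286, where 35 splits allow no p under 0.0286).

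The genes around the domain were followed next, to see whether the region of chromosome 12 moved together. Of 21 listed neighbours 20 were measured, 0 passed at their brightest probe set where 2.33% of all genes did, and 1 had an unadjusted p under 0.05 (14.5% of all genes). Their median log2 difference was -0.07, against -0.01 over all genes, and 14 of 20 were negative. Dio3, the thyroid hormone deiodinase at the far end of the imprinted domain, was dim, with 4.54, 3.35 and 3.99 in Dicer1-deficient arrays, against 4.47, 3.78, 3.92 and 4.01 in controls. Begain, the neighbour on the Dlk1 side, had 4.92, 5.30 and 5.23 in Dicer1-deficient arrays, against 5.18, 4.65, 4.84 and 5.15 in controls. Both overlapped between the groups and lay below the median of all signals.

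The other neighbours gave no call either. Bcl11b, a zinc finger transcription factor gene, had the smallest p, with means of 7.62 ± 0.38 (SD, n = 3) in Dicer1-deficient and 7.10 ± 0.20 (SD, n = 4) in control arrays (difference 0.51, limma adjusted p = 0.270). Ccnk, which encodes cyclin K, was the one neighbour without overlap (16.3% of all genes), at 10.61, 10.76 and 10.69 in Dicer1-deficient arrays, against 10.47, 10.59, 10.46 and 10.39 in controls (difference 0.21, limma adjusted p = 0.372). Yy1, Wars, Evl, Eml1, Ppp2r5c, Setd3, Dync1h1, Cinp and Hsp90aa1, all bright, had differences from -0.19 to -0.03. Without control 4 these 9 ran from -0.23 to 0.05, with Evl at -0.02 and Dync1h1 at 0.05. Wdr25, Wdr20, Hhipl1, Slc25a29, Degs2 and Cyp46a1 had differences from -0.13 to 0.15. Several of these moved without control 4, in which Cyp46a1 read 8.27, against 7.02 to 7.14 in controls 1 to 3. Without it the difference was 0.27 for Cyp46a1 (-0.02 with it), -0.06 for Wdr20 (0.15), 0.09 for Degs2 (-0.05), 0.28 for Hhipl1 (0.15) and 0.04 for Wdr25 (0.07), with 0 called. Slc25a47 had a difference of -0.58 with control 4 at 8.99, against 6.92 to 7.43 in controls 1 to 3, and was -0.13 without it. With probe sets averaged and control 4 left out, where 17.0% of all genes passed, 4 of the 20 passed: Wars and Eml1 were lower and Ccnk and Bcl11b higher in Dicer1-deficient RPE.

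On chromosome 11 the genes on either side of Grb10 changed in opposite directions when their probe sets were averaged. Ddc, which encodes the aromatic amino acid decarboxylase, and Cobl, which encodes an actin nucleator, share the imprinted domain of Grb10 in the mouse. The mean over its 17 probe sets put Cobl at 6.75, 6.78 and 6.47 in Dicer1-deficient arrays, against 5.66, 5.98, 5.84 and 5.72 in controls. Cobl rose, with a log2 difference of 0.87 (SE 0.11; limma adjusted p = 0.0019), or 0.84 without control 4. The mean over the 16 probe sets of Ddc was 5.74, 5.72 and 5.77 in Dicer1-deficient arrays, against 6.07, 6.18, 6.17 and 6.03 in controls. Ddc fell, with a difference of -0.37 (SE 0.08; limma adjusted p = 0.0256), or -0.40 without control 4. In that fit 5.86% of all genes passed. Every mean of Ddc and every control mean of Cobl lay below the median of all signals, 6.22, so dim probe sets enter both. The Dicer1-deficient means of Cobl lay above it.

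These calls depend on how a gene is summarised. At the brightest probe set Cobl had 9.24, 9.26 and 9.01 in Dicer1-deficient arrays, against 8.71, 8.73, 8.97 and 8.14 in controls. The groups did not overlap there (as for 16.3% of all genes), but the limma adjusted p was 0.2496 (difference 0.53). Ddc had 8.95, 8.58 and 8.91 in Dicer1-deficient arrays, against 9.54, 9.48, 9.59 and 8.92 in controls, a difference of -0.57 (limma adjusted p = 0.207). Control 4 lay among the Dicer1-deficient arrays there, and without it Ddc passed (difference -0.72, limma adjusted p = 0.0185), as did 5.18% of all genes. Grb10 lies between these genes and did not pass by either summary.

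**Figure D4:**
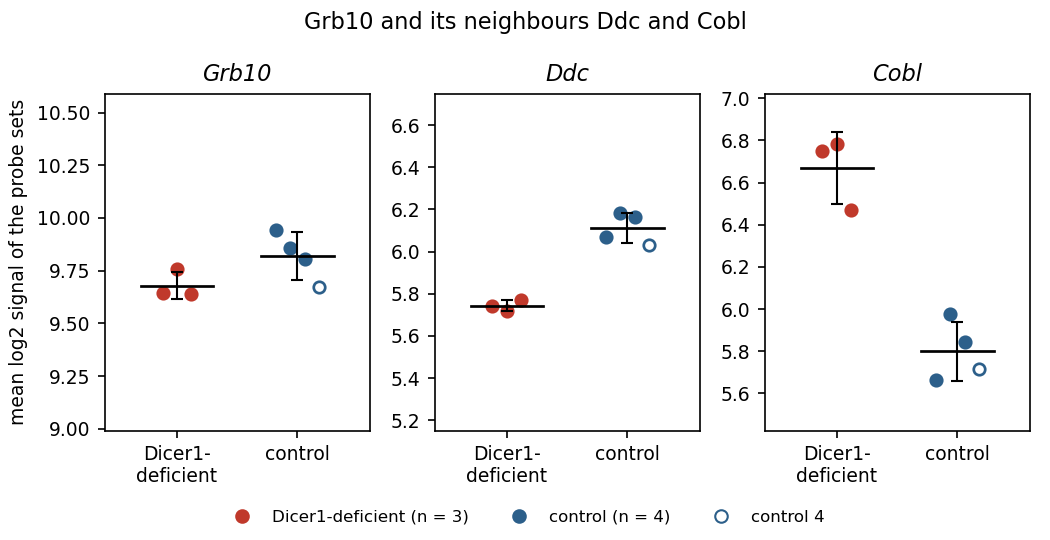
Mean log2 signal over the probe sets of Grb10, Ddc and Cobl in each array, Dicer1-deficient left and control right, with group means as lines and SDs as bars; each panel spans the same range but starts at its own level. Cobl is higher and Ddc lower in all Dicer1-deficient arrays, and Grb10 overlaps through control 4, drawn open.

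Of the 57 other imprinted genes listed, 8 lie on chromosomes 1 and 10 to 13, and 7 of these were measured, Cobl and Ddc included. At the brightest probe set 0 passed, where 2.33% of all genes did, and 2 had an unadjusted p under 0.05, where 14.5% did. Plagl1, a zinc finger gene of an imprinted growth network, had 12.49, 12.54 and 12.68 in Dicer1-deficient arrays, against 12.93, 12.76, 12.79 and 12.52 in controls, a difference of -0.19. Averaged over its 15 probe sets the groups did not overlap (as for 18.9% of all genes), with a difference of -0.36 (limma adjusted p = 0.0578). Zdbf2 had a difference of -0.38 (limma adjusted p = 0.379), and Dcn, a proteoglycan gene of connective tissue, -0.14. Phactr2 and Commd1 had differences of 0.03 and -0.02, or 0.01 and 0.20 without control 4. The median of the 7 was -0.14. With probe sets averaged and control 4 left out, 4 of the 7 passed, Plagl1, Ddc and Zdbf2 lower and Cobl higher, where 17.0% of all genes did.

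Factors that act on imprints or on the products of these genes gave no call at their brightest probe set, where 2.33% of all genes passed, 14.5% had an unadjusted p under 0.05 and 16.3% had no overlap. Of 22 regulators of imprints or of the locus 7 were measured and 0 passed, with 2 at an unadjusted p under 0.05. These were Aff3, which binds imprinting control regions (difference -0.34, limma adjusted p = 0.148), and Jarid2, a Polycomb cofactor (0.47, 0.244), and in both the groups did not overlap. With probe sets averaged and control 4 left out, where 17.0% of all genes passed, Aff3 was lower (-0.31, limma adjusted p = 0.0103) and Jarid2 higher (0.27, limma adjusted p = 0.0259). Of 31 Notch pathway genes, listed because DLK1 resembles Notch ligands, 8 were measured and 0 passed at the brightest probe set, with 3 at an unadjusted p under 0.05. Hey2, a transcriptional target of Notch, had 7.50, 7.41 and 7.86 in Dicer1-deficient arrays, against 8.35, 8.30, 8.11 and 7.96 in controls, without overlap (difference -0.59, limma adjusted p = 0.101). Without control 4 it passed there (-0.66, limma adjusted p = 0.0406), as did 5.18% of all genes. Averaged over its 7 probe sets it fell (-0.54, limma adjusted p = 0.0267; 5.86% of all genes passed). Maml1, a Notch coactivator, had a difference of 0.53 (limma adjusted p = 0.298). With probe sets averaged and control 4 left out 2 of the 8 passed, Hey2 and Rfng, both lower, Rfng being named after its value was seen.

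Of 19 partners and paralogs of GRB10 7 were measured and 0 passed at the brightest probe set, where 2.33% of all genes did, with 1 at an unadjusted p under 0.05 (14.5%). Igf1, the growth factor gene, had 12.04, 12.08 and 11.89 in Dicer1-deficient arrays, against 11.55, 11.57, 11.57 and 11.91 in controls. Control 4 alone reached the Dicer1-deficient arrays, and the difference was 0.35 (limma adjusted p = 0.228), or 0.44 without that array (limma adjusted p = 0.0290; 5.18% of all genes passed). Akt1, a kinase downstream of the insulin receptor, had a difference of -0.20 without overlap (limma adjusted p = 0.361; 16.3% of all genes had no overlap). With probe sets averaged and control 4 left out, where 17.0% of all genes passed, 4 of the 7 did. Igf1 was higher (limma adjusted p = 0.0196), and Akt1 (0.0185), Rptor (0.0377) and Irs1 (0.0447) were lower, the last 2 named after their values were seen. Of 18 microRNA biogenesis genes 4 were measured and 0 passed, with 0 at an unadjusted p under 0.05. Tnrc6c, a partner of Argonaute proteins, had a difference of -0.09, and Adarb1, an RNA editing enzyme, 0.08.

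The genes most like the host transcripts across arrays were found by correlating each gene with the centred mean of Meg3 and Rian, as a description over 7 arrays that share 2 groups. That mean was -0.11, 0.03 and -0.16 in Dicer1-deficient arrays, against -0.12, 0.02, 0.17 and 0.16 in controls, and the groups overlapped. The highest Pearson r were those of Lect2 (0.986), Serpina1c (0.969), Hal (0.924), 1810034E14Rik (0.920) and Acot2 (0.917). Of these Lect2, Serpina1c and Hal had signals near or below the lower quartile, and 1810034E14Rik, at 4.57 to 5.16, lay below the median. Without control 4 the list was Lect2 (0.984), Nectin4 (0.983), Serpina1c (0.972), Mboat2 (0.970) and Atl1 (0.962), with 2 names in common. Nectin4, at 4.95 to 5.22, also lay below the median, and Atl1, at 5.98 to 6.29, lay near it.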

How the data were processed

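For 7 Affymetrix arrays the authors deposited log2 signals in 1 table, made with RMA (background correction, quantile normalization and probe summary) and Partek 6.6, per the submitters' processing notes; the scale follows from the values (2.71 to 13.5). RMA removes differences in total RNA. The genome build is not given in the sources used here, and no detection calls were used. Array number limits the precision.

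Probe sets were named from a platform annotation, with symbols updated through RefSeq (GRCm38.p6), which also gave gene order and microRNA sequences. The listed symbol Wars1 was matched as Wars. Groups were compared on all 65535 probe sets, on genes at the brightest probe set, and along transcripts with diffSplice, by limma 3.58.1 in R 4.3.3 (lmFit and eBayes, two-sided, Benjamini-Hochberg, threshold 0.05). The members and lists were chosen with earlier results of these data known. Named were all members, Dicer1, every measured neighbour and imprinted gene, up to 2 uncalled genes of each other list by p, and the 5 genes most like the host RNAs. On simulated data diffSplice made more false calls than its threshold allows where probe sets of a gene differ in spread, so a fit with a spread for each was added. The simulated noise was independent between probe sets, without shifts shared within an array such as control 4 may carry.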

Additional observations from a re-analysis of the deposited data

Results flagged for a closer look

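Among the 37 probe sets tested for an array far from the other 3 controls, 2 had one, and in both it was control 4. At the brightest Grb10 probe set, 10384401, control 4 read 11.67, against 11.81 to 11.83 in the other controls, with a gap of 0.866 of the whole range of the controls, past Dixon's critical value for 4 samples. At Rtl1 probe set 10398349 control 4 read 4.55, against 4.18 to 4.20, with a gap of 0.938 of the range. Chance alone would pass this value in about 1 of 20 such sets, and 9.56% of all probe sets passed it, 5016 of the 6264 through control 4.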

How the results depend on the processing

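No paired analysis was possible because the array labels carry no replicate numbers shared between the groups. The count of 0 member probe sets held in all 15 alternatives, over 547 probe-set values with a smallest adjusted p of 0.0525. The count of 0 member genes held in 16 of 17 alternatives and was 1 with probe sets averaged and control 4 left out, through Dlk1 (-0.24, adjusted p = 0.0353). Dlk1, Meg3 and Rian stayed negative in all 17, Dlk1 between -0.35 and -0.23; Rtl1, which a filter at the median removes, ran from -0.07 to 0.16 and Grb10 from -0.19 to 0.01, all uncalled. The numbers of calls over the table moved more. All probe sets gave 561 calls, 1663 with array weights and 138 to 1216 with one array left out. All genes gave 117, with 385 under array weights, 294 on the mean of probe sets, 853 on that mean without control 4, 265 on the mean of the probe sets above the median, and 33 to 260 with one array left out. Genes whose probe sets differ numbered 60, with 39 above the lower quartile, 30 to 281 with one array left out, and 6 with a spread for each probe set (8 without control 4). The F of Grb10 was 0.927, and 0.625 to 2.72 with one array left out, called at 2.72 without control 4. Dlk1 minus Meg3 was -0.16 without control 4 (exact p = 0.600) and -0.11 at the brightest probe sets (exact p = 0.657). The cause of these changes was not tested. Signal limits Rtl1, Dio3 and Begain, which lay below the median of all probe sets.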
